A study of Mus musculus with 4 samples.

Results

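The genes described here are 10 members of the machinery that separates CD4 from CD8 T cells, out of 50600 gene identifiers counted in each library. They were chosen by name, with their levels in these libraries already known: the coreceptor chain genes Cd4, Cd8a and Cd8b1, the transcription factor genes Zbtb7b, Runx1, Runx2, Runx3, Tox and Bcl11b, and Cbfb, which encodes the shared partner of the RUNX proteins. Because levels chose them, their levels are given as a description, with no test. RNA-seq came from primary mouse T cells (strain C57BL/6NJ), and its 4 libraries, biological replicates 1 to 4 in the labels, make up 1 group. In the headers of the count files the alignments carry the words Th0, activated and 16 h; Th0 usually means that helper T cells were stimulated with no cytokine that steers their fate. A protocol named for CD4+ T cell differentiation is linked in the labels, the sex was not collected, the age is unknown, and all 4 biosamples carry the same donor identifier. The labels do not say that they came from separate animals. Sex-linked transcripts, given with the depth, part replicates 1 and 2 from replicates 3 and 4, so the 4 libraries did not all come from 1 animal. Whether the libraries within each pair share an animal is not given, and the p-values measure only the spread between these libraries.

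A developing thymocyte first carries both coreceptors and then keeps the one that matches the MHC class its receptor binds: CD4 for class II, CD8 for class I. ThPOK, the product of Zbtb7b, is needed for the CD4 fate and represses genes of the CD8 programme, whereas RUNX3, bound to CBF-beta, silences Cd4 and takes part in switching on Cd8 genes in the CD8 fate. In the mouse, ThPOK and RUNX3 are known to repress each other's genes. CD8 reaches the surface as a pair of alpha chains or as an alpha and a beta chain, and the beta chain depends on the alpha chain to get there.

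Totals ran from 46192242 to 63313389 counted read pairs per library. The T cell markers Trac (1883 ± 25.6 TPM, SD, n = 4), Trbc2 (1241 ± 17.5 TPM; its near-identical neighbour makes the level uncertain) and Cd5 (1184 ± 40.4 TPM) were high, and all 8 T cell markers reached 1 TPM in each of the 4 libraries. TPM is the count over the exonic length of the gene, scaled to the same total in every library. Of all nuclear protein-coding genes, 45.2% reached 1 TPM in every library. Replicates 1 and 2 stood apart from 3 and 4 in sex-linked transcripts: Xist lay at 141 and 116 TPM against 0.269 and 0.303 TPM, and 4 Y-linked genes (Ddx3y, Eif2s3y, Kdm5d and Uty) summed to 0.0951 and 0.328 TPM against 104.9 and 104.9 TPM. Each gene below is therefore given library by library, in the order of replicates 1 to 4.

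The windows before the transcription starts of Runx3, Zbtb7b and Cd8a are shown because these genes carry the 2 comparisons that follow, and because RUNX proteins bind the letters TGTGGT. RefSeq promoter entries (GRCm38.p6, the assembly also called mm10) matched 7 of the 10 genes with 10 starts in all; Cd4, Cd8b1 and Tox had none. Each sequence is the 250 bases before a start, read along the gene's own strand, with TGTGGT or its reverse complement ACCACA in capitals.
Runx3, upstream start, chr4:135120395-135120644, plus strand: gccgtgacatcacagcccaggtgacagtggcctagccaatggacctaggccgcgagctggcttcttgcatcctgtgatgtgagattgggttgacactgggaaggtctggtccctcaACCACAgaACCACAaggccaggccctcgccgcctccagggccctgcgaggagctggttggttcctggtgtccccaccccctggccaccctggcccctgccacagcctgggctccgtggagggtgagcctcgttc
Zbtb7b, inner start, chr3:89387672-89387921, minus strand: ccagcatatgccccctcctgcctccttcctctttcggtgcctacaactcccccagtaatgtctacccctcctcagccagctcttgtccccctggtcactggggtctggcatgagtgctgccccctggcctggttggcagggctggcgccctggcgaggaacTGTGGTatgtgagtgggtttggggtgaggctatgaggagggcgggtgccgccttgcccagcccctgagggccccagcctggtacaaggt
Cd8a, chr6:71373177-71373426, plus strand: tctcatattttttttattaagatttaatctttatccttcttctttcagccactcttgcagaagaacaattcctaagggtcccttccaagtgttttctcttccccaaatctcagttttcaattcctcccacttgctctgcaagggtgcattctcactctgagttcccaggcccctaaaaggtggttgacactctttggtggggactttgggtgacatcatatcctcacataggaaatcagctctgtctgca

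The upstream Runx3 window held 2 copies, both as ACCACA, which begin 134 and 126 bases before the start. The inner Zbtb7b window held 1 copy, which begins 89 bases before the start, and the Cd8a window held none. The inner Runx3 window and the outer Zbtb7b window held none; they overlap annotated exons and are not printed. Runx2 (1 copy) was the other gene with a match, so 3 of the 10 windows held the letters. For the upstream Runx3 start, the 50 bases after it had no exact match in any GENCODE M21 transcript of Runx3. That window ends at 135120644, and Runx3 begins at 135120652 in the counting annotation, a few bases further on. The missing match therefore does not show that GENCODE lacks this start. The 50 bases after the printed Zbtb7b and Cd8a starts were found in transcripts of their genes. Over all 32851 windows of 250 bases, 14.05% held TGTGGT on either strand; the matches are a description of letters, not of bound sites. Counts per gene do not tell which start of Runx3 or Zbtb7b a read pair came from.

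Cd4, the coreceptor chain that binds MHC class II and carries the kinase LCK on its tail, was the highest of the 10 genes in every library. Cd4 (ENSMUSG00000023274.14, mm10 chromosome 6, 124864692 to 124888221, minus strand, 11 exon blocks) lay at 742, 710.0, 762 and 781 TPM, a mean of 749 ± 30.2 TPM (SD, n = 4). Replicate 2 was the lowest and replicate 4 the highest, and the mean ranked 159th among nuclear protein-coding genes. Lck, the kinase that both CD4 and CD8 alpha hold, lay at 622 ± 11.4 TPM. The protein-coding genes on either side of Cd4 were Gpr162 at 3.82 ± 0.507 TPM and Lag3, an inhibitory receptor related to CD4, at 453 ± 24.9 TPM, both on the strand of Cd4.

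The beta chain gene of CD8 was well above the alpha chain gene, though the pair lies close together on the same strand. Cd8b1 (ENSMUSG00000053044.8, chromosome 6, 71322788 to 71337494, plus strand, 6 exon blocks) lay at 60.1, 61.1, 53.3 and 55.5 TPM, from 1437, 1340, 1491 and 1105 read pairs. The 4 libraries were close, at 57.5 ± 3.71 TPM (SD, n = 4). Cd8a (ENSMUSG00000053977.13, chromosome 6, 71373427 to 71379173, plus strand, 4 exon blocks) lay at 0.99, 1.06, 0.831 and 0.225 TPM, from 58, 57, 57 and 11 read pairs. Replicates 1 to 3 lay near 1 TPM and replicate 4 lay below them. In CPM, counts scaled to the library total without length, Cd8a was 1.08 (95% Wilson interval 0.837 to 1.398), 1.17 (0.899 to 1.51), 0.90 (0.695 to 1.17) and 0.238 (0.133 to 0.427), so the interval of replicate 4 did not touch the other 3. These intervals cover counting error only.

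Within each library, Cd8b1 TPM stood at 60.8, 57.7, 64.2 and 246 times Cd8a TPM. The ratio was alike in replicates 1 to 3, at 60.9 ± 3.25 (SD, n = 3) without replicate 4, and 107 ± 92.8 (SD, n = 4) with it, so replicate 4 decides the mean and its spread. On the log2(TPM + 1) scale, which understates differences of low genes, Cd8b1 exceeded Cd8a by 5.07 ± 0.306 (SD, n = 4), in 4 of 4 libraries. Cd8b1 is the shorter gene, with 1483 exonic bases against 3637 for Cd8a. In raw read pairs the ratio was therefore smaller, at 24.8, 23.5, 26.2 and 100.5. Cd8a supplied 1.32 ± 0.612% (SD, n = 4) of the summed TPM of both chains, and 3.16 ± 1.46% by CPM.

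**Figure D1:**
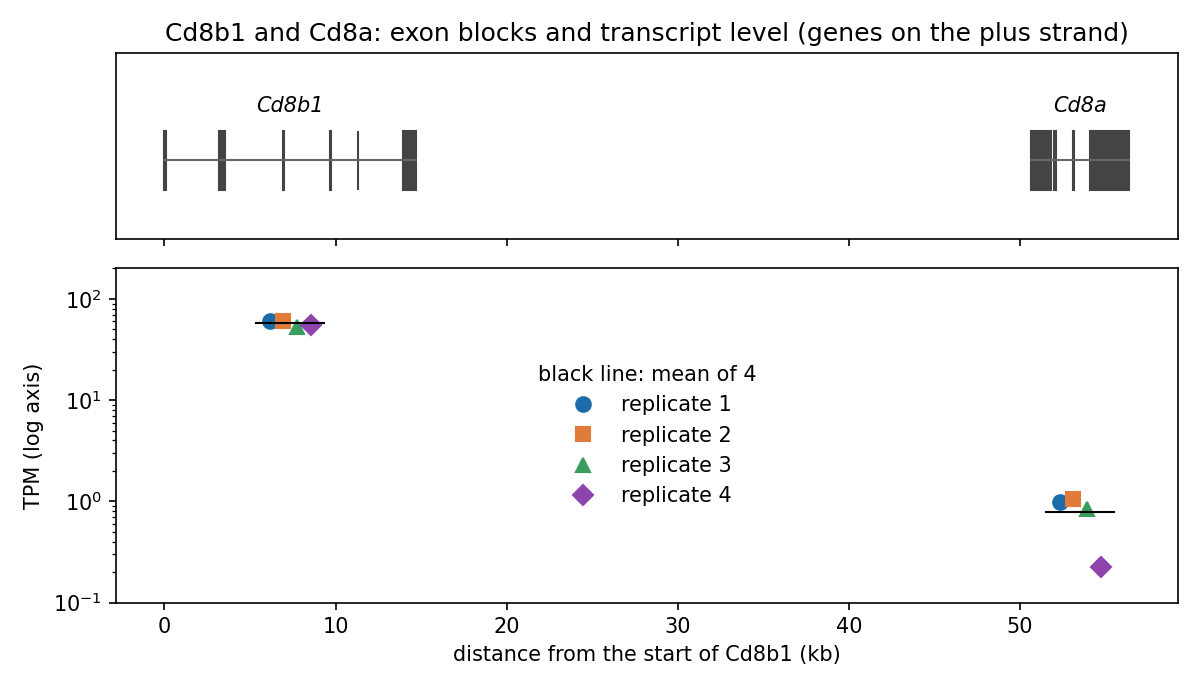
Exon blocks of Cd8b1 and Cd8a (upper panel) and TPM of each gene by library on a log axis (lower panel), against distance in kb from the start of Cd8b1; points are spread sideways only to part the replicates, and black lines are means of 4. Cd8b1 sits between 53.3 and 61.1 TPM and Cd8a between 0.225 and 1.06 TPM, with replicate 4 lowest for Cd8a.

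The end of Cd8b1 and the start of Cd8a are 35.9 kb apart. Smyd1, on the other strand 555 bases from Cd8b1, lay at 1.54 ± 0.176 TPM, and Rmnd5a, on the other strand beyond Cd8a, at 73.7 ± 2.37 TPM. No annotated gene overlapped Cd4, Cd8a or Cd8b1 in the counting annotation. Of the distinct 50-base stretches in annotated Cd8b1 transcripts, 86 of 1434 (6.00%) also occurred in a transcript of another gene in the same orientation, against 0 of 3683 for Cd8a and 0 of 4025 for Cd4. No stretch of this length was shared between any of the 10 genes, so Cd8a and Cd8b1 reads of that length or longer can be told apart.

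Other lymphocytes and myeloid cells can also carry CD8 or CD4, and their markers were near or under 1 TPM. None of 6 dendritic cell markers reached 1 TPM in every library: their sum ran from 0.644 to 0.857 TPM, Zbtb46 lay at 0.665 ± 0.108 TPM, Clec9a had no count, and Batf3 and Itgax lay at 0.0194 ± 0.0389 TPM and 0.0183 ± 0.0216 TPM. None of 5 NK cell markers did (sum 0 to 0.595 TPM; Tyrobp 0.127 ± 0.253 TPM, Klra4 0.0424 ± 0.0566 TPM, Ncr1 0.032 ± 0.0418 TPM), and none of 5 macrophage markers (sum 0.049 to 0.33 TPM; Lyz2 0.0825 ± 0.165 TPM, Adgre1 0.0654 ± 0.0712 TPM, Csf1r 0.0191 ± 0.0381 TPM), with Klra8, Cd14 and Fcgr1 at 0 counts. A count of 0 allows up to 0.0474 to 0.0649 CPM, which is 3 counts of a library's total.

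B cell markers were low, and lowest in replicate 4, as Cd8a was. None of 4 B cell markers reached 1 TPM in every library, and their sum was 6.39, 4.32, 4.00 and 1.77 TPM. Cd79a lay at 2.39, 2.46, 1.46 and 0.307 TPM, Cd79b at 2.78, 0.945, 1.70 and 0.885 TPM, and Pax5 at 0.61, 0.458, 0.431 and 0.379 TPM. Without replicate 4, 1 of the 4 reached 1 TPM in every library. Whether the same cells or RNA account for the low Cd8a and the low B cell markers of replicate 4 was not tested. In bulk RNA, fewer cells with a transcript and less of it per cell cannot be told apart.

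**Figure D2:**
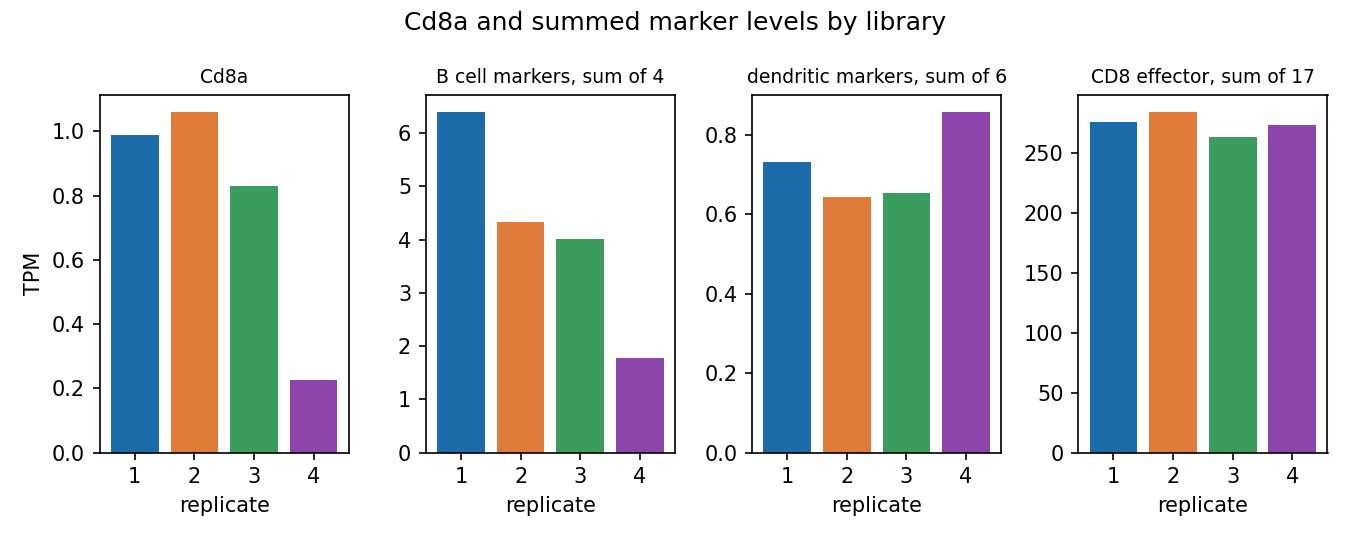
TPM by library of Cd8a and summed TPM of B cell, dendritic cell and CD8 effector lists, each panel with its own linear axis from 0. Replicate 4 is lowest for Cd8a (0.225 TPM) and for the B cell sum (1.77 TPM), while the CD8 effector sum, most of it Cst7, Xcl1 and Fasl, lies between 264 and 284 TPM and does not show single genes such as Nkg7, which is lowest in replicate 4.

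Of 17 CD8 effector and cytotoxic genes, 7 reached 1 TPM in each of the 4 libraries, against 9840 of 21751 nuclear protein-coding genes (45.2%). Cst7, a protease inhibitor of cytotoxic cells, led with 145 ± 10.4 TPM, followed by the chemokine gene Xcl1 at 48.7 ± 4.49 TPM and the death ligand gene Fasl at 40.6 ± 0.88 TPM. Among granule genes, Nkg7 lay at 29.0 ± 4.83 TPM, Gzmb at 2.18 ± 0.703 TPM and Prf1 at 0.689 ± 0.353 TPM, and Gzmk had no count. The summed level of the 17 genes ran from 264 to 284 TPM and was lowest in replicate 3, but most of that sum was Cst7, Xcl1 and Fasl. Gene by gene, 5 of the 7 were lowest in replicate 4, as Cd8a was, against 20.96% of the 9840 protein-coding genes at the same floor. Other short lists were as uneven in other libraries. Of the RUNX corepressors and ETO family, 5 of 6 were lowest in replicate 1, against 25.28%. Of the regulatory T cell genes, 4 of 4 were lowest in replicate 3, against 21.39%. Nkg7 lay at 32.2, 31.4, 30.7 and 21.8 TPM, Cd160, a receptor of cytotoxic lymphocytes, at 3.81, 4.12, 3.19 and 2.42 TPM, and Gzmb at 2.67, 1.76, 2.88 and 1.42 TPM. The other 2 of the 5 effector genes lowest in replicate 4, Fasl and Crtam, differed little between libraries, with Crtam at 1.38 ± 0.042 TPM. Under the floor, Tbx21, a factor gene of effector cells, lay at 0.274, 1.09, 0.789 and 0.239 TPM. Eomes, also under the floor, was highest in replicate 4, at 1.02, 1.24, 0.447 and 1.42 TPM. So was Prf1, at 0.841, 0.288, 0.534 and 1.095 TPM. Klrd1 and Itgae, from few read pairs, were highest in replicate 4 too, while Klrk1, at a mean of 0.0288 TPM, was lowest there. Tbx21 was too low to be tested for spread. Of the 5 genes at the floor that were lowest in replicate 4, none passed that test at an adjusted p of 0.05 (edgeR). Over all tested genes, 0.228% passed. The part of any of these genes in the low Cd8a of replicate 4 was not tested. Of 6 genes that thymocytes express, not all of them only there, Cd1d1 (1.56 ± 0.427 TPM) was at 1 TPM in every library. Dntt lay at 0.153 ± 0.136 TPM, Ptcra at 0.0712 ± 0.11 TPM, Rag1 at 0.0289 ± 0.0344 TPM and Rag2 had no count.

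Zbtb7b and Runx3, the factor genes of the opposed fates, were both well above 1 TPM in every library, with Zbtb7b the higher. Zbtb7b (ENSMUSG00000028042.15, chromosome 3, 89377644 to 89394776, minus strand, 10 exon blocks) lay at 78.9, 90.5, 83.5 and 96.2 TPM, a mean of 87.3 ± 7.63 TPM (SD, n = 4). Runx3 (ENSMUSG00000070691.10, chromosome 4, 135120652 to 135177990, plus strand, 9 exon blocks) lay at 54.0, 51.6, 61.9 and 55.2 TPM, a mean of 55.7 ± 4.41 TPM (SD, n = 4). The levels did not overlap: the lowest Zbtb7b library lay above the highest Runx3 library. Bulk RNA does not tell whether the same cells held both transcripts.

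Zbtb7b TPM was 1.46, 1.75, 1.35 and 1.74 times Runx3 TPM within replicates 1 to 4, a mean ratio of 1.58 ± 0.203 (SD, n = 4). Replicates 2 and 4 gave the larger ratios and replicates 1 and 3 the smaller. Zbtb7b was highest in replicates 4 and 2, and Runx3 was highest in replicate 3 and lowest in replicate 2. On the log2(TPM + 1) scale the difference was 0.638 ± 0.186. An antisense transcript gene, Gm15417, overlaps Zbtb7b and lay at 2.99 ± 0.431 TPM; the counting used strand. Runx3 shared 55 of 4946 distinct stretches of 50 bases (1.11%) with transcripts of other genes, and Zbtb7b 18 of 5676 (0.317%).

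**Figure D3:**
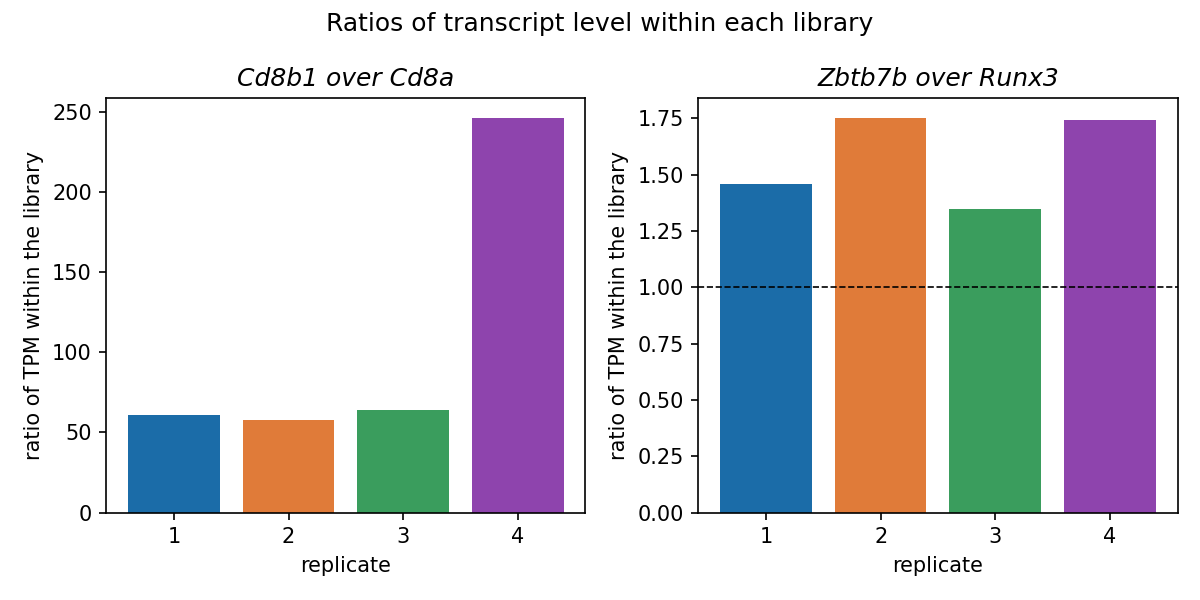
Ratio of TPM within each library for Cd8b1 over Cd8a and for Zbtb7b over Runx3, on linear axes from 0, with a dashed line at equal levels in the right panel. Replicate 4 gives a Cd8b1 to Cd8a ratio of 246 against 57.7 to 64.2 in the others, and Zbtb7b stays above Runx3 in all 4 libraries, by 1.35 to 1.75 times.

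Of the RUNX genes Runx3 was the most abundant, and Cbfb, whose product steadies all RUNX proteins on DNA without binding it, exceeded their sum. Runx1 (ENSMUSG00000022952.16, chromosome 16, 92601466 to 92826149, minus strand), the RUNX gene that silences Cd4 in early thymocytes, lay at 15.6, 17.6, 17.7 and 18.5 TPM. Replicate 1 was the lowest, and the mean was 17.4 ± 1.26 TPM (SD, n = 4). Runx2 (ENSMUSG00000039153.16, chromosome 17, 44495987 to 44814797, minus strand), known above all as the regulator of bone-forming cells, lay at 0.274, 0.329, 0.384 and 0.514 TPM, from 39, 43, 64 and 61 read pairs. It stayed under 1 TPM in all 4 libraries. In CPM, the 95% Wilson intervals of Runx2 were 0.532 to 0.994 in replicate 1 and 1.03 to 1.70 in replicate 4, and the bounds of the other 2 libraries lay between these. Supt3, a transcription coactivator gene on the other strand that overlaps Runx2, lay at 19.8 ± 0.744 TPM, and of 3 opposite-strand transcripts there Runx2os1 lay at 0.288 ± 0.344 TPM while Runx2os2 and Runx2os3 had no count.

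Runx3 supplied 75.8 ± 1.79% (SD, n = 4) of the summed RUNX TPM, Runx1 23.7 ± 1.71% and Runx2 0.509 ± 0.128%. Runx3 TPM was 3.47, 2.93, 3.51 and 2.98 times Runx1 TPM in replicates 1 to 4. That ratio, 3.22 ± 0.308 (SD, n = 4), depends on the length used: it was 2.06 ± 0.197 with the longest annotated transcript and 1.36 ± 0.13 by CPM. Runx3 stayed the highest of the 3 in each library, with 66.85% and 57.2% of the RUNX sum under those lengths. Cbfb (ENSMUSG00000031885.14, chromosome 8, 105170674 to 105217989, plus strand) lay at 155, 151, 165 and 159.6 TPM, with replicate 3 the highest, as for Runx3. The mean of Cbfb was 158 ± 5.97 TPM, against 73.4 ± 4.86 TPM for the 3 RUNX genes together, a ratio of 2.15 ± 0.0657 (SD, n = 4). With the longest transcript as the length the ratio was 1.77 ± 0.0535, and by CPM it was 1.13 ± 0.0369, still above 1 in all 4 libraries.

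Of 9 corepressors that work with RUNX proteins or belong to the ETO family, 6 reached 1 TPM in each of the 4 libraries. Over all nuclear protein-coding genes the share was 45.2%. The median over the 9 was 14.2 TPM. Aes, a short Groucho relative, lay at 226 ± 9.25 TPM, the corepressor scaffold gene Sin3a at 99.8 ± 1.72 TPM and the Groucho gene Tle3 at 65.4 ± 3.61 TPM. Tle4 (27.2 ± 2.05 TPM), Cbfa2t2 (14.2 ± 0.731 TPM) and Tle1 (6.79 ± 0.719 TPM) were the others at 1 TPM. Tle2 lay at 0.479 ± 0.225 TPM, Cbfa2t3 at 0.0245 ± 0.0213 TPM and Runx1t1 had no count.

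Bcl11b and Tox, which act earlier in the T cell pathway, were both present in every library, Bcl11b at the higher TPM. Bcl11b (ENSMUSG00000048251.15, chromosome 12, 107910403 to 108003602, minus strand), a zinc finger factor that commits progenitors to the T cell lineage, lay at 83.4, 90.0, 91.0 and 104 TPM, a mean of 92.0 ± 8.51 TPM (SD, n = 4). Replicate 4 was the highest and replicate 1 the lowest. Tox (ENSMUSG00000041272.11, chromosome 4, 6686353 to 6991557, minus strand), an HMG-box factor that CD4 lineage development in the thymus requires, lay at 17.7, 18.9, 18.6 and 19.3 TPM. The libraries were close together, at 18.6 ± 0.656 TPM (SD, n = 4).

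Among 6 close relatives of the factor genes, 2 were at 1 TPM in every library, against 45.2% of nuclear protein-coding genes. Tox4 lay at 77.1 ± 3.04 TPM, above Tox in TPM, and Zbtb7a, which acts partly redundantly with Zbtb7b in CD4 T cells, at 46.1 ± 3.66 TPM. Tox2 lay at 0.14 ± 0.0715 TPM, and Tox3 and Bcl11a at 0.0139 ± 0.0277 TPM and 0.0495 ± 0.0194 TPM. For the relative of Zbtb7b named Zbtb7c there was no count.

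In order of mean TPM the genes ran Cd4, Cbfb, Bcl11b, Zbtb7b, Cd8b1, Runx3, Tox, Runx1, Cd8a and Runx2. The steps from Cd4 to Cbfb (4.74-fold), Cbfb to Bcl11b (1.72-fold), Zbtb7b to Cd8b1 (1.52-fold), Runx3 to Tox (2.99-fold) and Runx1 to Cd8a (22.4-fold) had no overlap between libraries. The other 4 neighbours overlapped: Bcl11b lay above Zbtb7b in 3 of 4 libraries, Cd8b1 above Runx3 in 3, Tox above Runx1 in 4 and Cd8a above Runx2 in 3. With the longest annotated transcript as the length, Bcl11b (72.5 TPM) fell under Zbtb7b (88.8 TPM), and Cd8b1 (45.3 TPM) under Runx3 (56.5 TPM), in all 4 libraries, so those orders depend on the length used. By CPM, with no length, 4 neighbouring orders turned: Bcl11b lay above Cbfb, Runx3 above Cd8b1 and Runx1 above Tox in all 4 libraries, and Runx2 above Cd8a in 2.

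**Figure D4:**
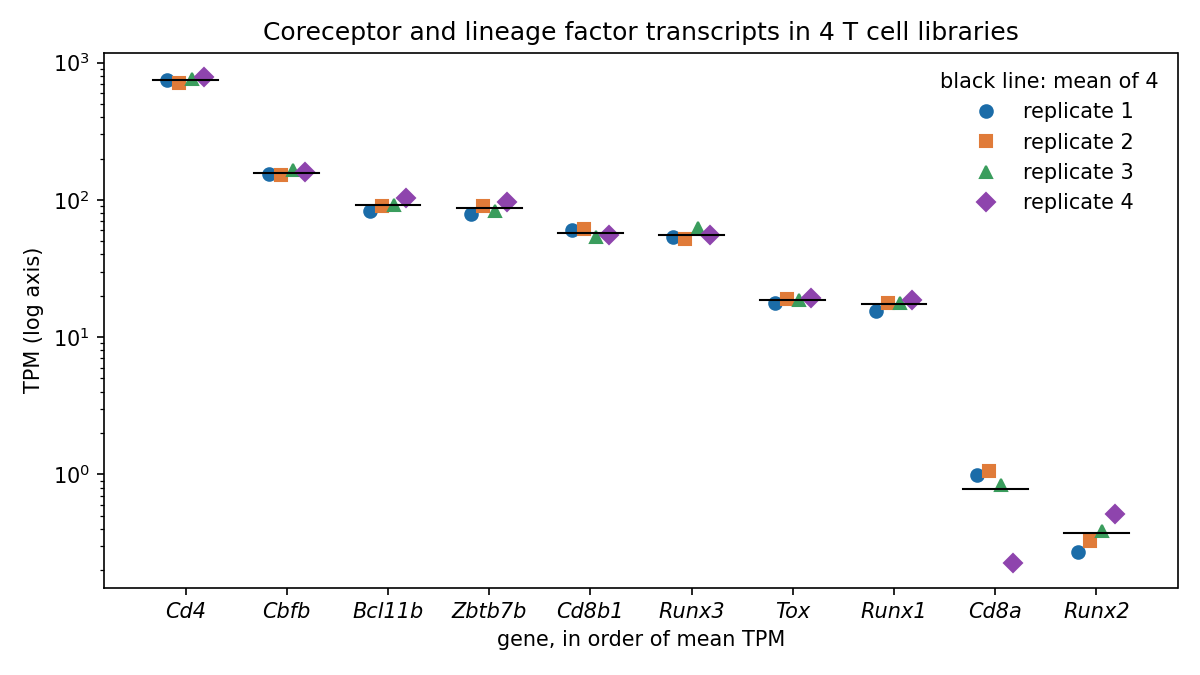
TPM of the 10 genes in each of the 4 libraries on a log axis, in order of mean TPM; each symbol is a library and black lines are means of 4. Cd4 lies at 710.0 to 781 TPM, 7 genes between 15.6 and 165 TPM, and Cd8a and Runx2 near or below 1 TPM.

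By likeness of level, measured as the root mean square difference of log2(TPM + 1) over the 4 libraries, the nearest protein-coding gene to Cd8b1 was D10Jhu81e (0.0406). The nearest to Runx3 was B4galt5 (0.0429) and the nearest to Zbtb7b was Zfp219 (0.028). With 4 libraries this says only that the levels were close.

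Other regulators of the coreceptor genes and of the lineage choice were almost all present. Every library held at least 1 TPM of 15 of the 16 such genes, against 45.2% of nuclear protein-coding genes. The median over the 16 was 69.1 TPM, against a median of 32.7 TPM over the 9840 protein-coding genes that met the same floor. Tcf7, whose product TCF-1 acts upstream of Zbtb7b, lay at 809 ± 31.5 TPM, Lck at the level given beside Cd4, and Chd4, an ATPase of the NuRD remodelling complex that acts at the Cd4 locus, at 435 ± 37.3 TPM. Gata3, which acts upstream of Zbtb7b in the thymus, lay at 18.3 ± 0.919 TPM and Themis, a signalling protein of thymocytes, at 7.13 ± 0.298 TPM. Patz1 (MAZR), a repressor of Cd8 and Zbtb7b in thymocytes, lay at 56.1 ± 2.44 TPM, and the E protein genes Tcf3 and Tcf12 at 205 ± 11.6 TPM and 33.8 ± 0.769 TPM. Tox2 was the gene under 1 TPM.

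Traces of other T cell kinds were low, apart from Il2ra. Of 5 gamma-delta and NKT genes only Trdc was at 1 TPM in every library, at 1.17 ± 0.0508 TPM, while Sox13 lay at 0.588 ± 0.151 TPM and Blk at 0.333 ± 0.21 TPM. All 4 regulatory T cell genes reached 1 TPM in every library, against 45.2% of nuclear protein-coding genes. They were led by Il2ra at 239 ± 13.9 TPM, which activated T cells also express. Foxp3 lay at 2.93 ± 0.756 TPM, Nrp1 at 1.395 ± 0.327 TPM and Ikzf2 at 1.15 ± 0.0553 TPM. With a floor of 5 TPM, 1 of the 4 remained.

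None of the 10 genes passed the test for spread between libraries, and Cd8a had the widest spread of them. The test set each gene's residual spread against the trend over all genes (edgeR quasi-likelihood, Benjamini-Hochberg adjusted over 12285 genes), and 0 of 10 passed an adjusted p of 0.05, where 28 of 12285 tested genes (0.228%) passed. At an unadjusted p under 0.05 there were 2 of 10, Cd8a and Zbtb7b, against 5.42% of all tested genes. DESeq2 marked 0 of the 10 as dispersion outliers, against 0.554% of all. Cd8a had an SD of 0.995 on the log2 CPM scale, above that of 99.8% of tested genes. That share is over genes of all levels, and Runx2, also from few read pairs, lay above 87.8%. Against the trend, the edgeR unadjusted p of Cd8a was 0.032. Its edgeR adjusted p was 0.85 and ranged from 0.593 to 0.998 over the alternatives. For Zbtb7b the SD was 0.114 and the edgeR adjusted p 0.913. At the other end, Cd4 (SD 0.0385), Tox (0.0431) and Cbfb (0.0458) had the smallest spread of the 10 on the log2 CPM scale. The median SD of the 10 was 0.108, against 0.102 over all tested genes. Missing the threshold does not show that the libraries were alike.

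**Figure D5:**
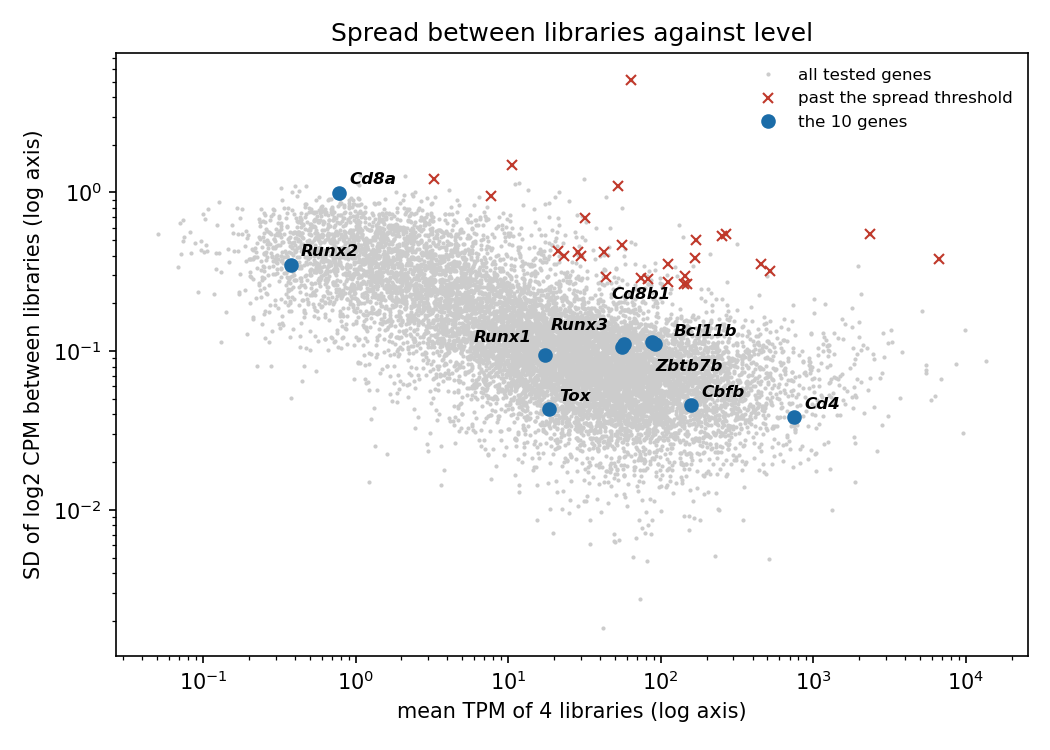
SD of log2 CPM between the 4 libraries against mean TPM, both on log axes, for all 12285 tested genes (grey), the 28 genes past the spread threshold (red crosses) and the 10 genes (blue). Cd8a, at an SD of 0.995, lies near the top of genes of its level and the other 9 lie within the cloud.

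Across the lists of lineage regulators, corepressors, relatives and cell markers, 52 distinct genes could be tested. In the edgeR test 0 of the 52 passed the adjusted threshold, against 0.228% of all tested genes. DESeq2 marked 0 of the 52 as dispersion outliers, against 0.554% of all. At an unadjusted edgeR p under 0.05 there was 1, the T cell marker Cd3g, against 5.42% of all tested genes.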

How the data were processed

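Gene expression was read from 4 libraries of 1 group. The values the authors deposited are whole-number counts of read pairs per gene. STAR alignments (version not stated in these sources) were counted by featureCounts 1.4.6-p4 over GENCODE M13 exons, strand setting 2, both mates required and no multi-mapping option set, per the file headers. Coordinates are mm10, the build in the labels. The labels say total RNA-seq, while the linked protocol is named for polyA+ RNA. TPM was computed from counts and the deposited union-exon length. GENCODE M21 gave symbols for 50376 of 50600 identifiers, and RefSeq (GRCm38.p6) the promoter windows; windows without exonic bases were printed, a choice made after seeing them.

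Members, lists and tests were chosen with earlier results of these data known. Genes named by rule were the members, the 3 highest of each list, list genes past the threshold, overlapping or adjacent genes and the nearest genes in level; others were named after their values were seen. Some marker genes are not reported here and were left out of their lists. The spread test was edgeR 4.0.16 under R 4.3.3 (TMM, filterByExpr, intercept only, robust quasi-likelihood, 3 residual and 13.9 prior degrees of freedom), with DESeq2 1.42.0 as an alternative. It was also run on data simulated from the same kind of model, and that outcome is not given here. Log2 CPM used a prior count of 2 and log2 TPM a pseudocount of 1. Alternatives covered scaling, filters, length, pseudocount, floors and each replicate left out.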

Additional observations from a re-analysis of the deposited data

Results flagged for a closer look

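Of 52 values checked by Dixon's criterion (the gap to the nearest library as a share of the range), 4 measured levels or ratios had 1 library apart from the other 3. Chance flags about 1 in 20 such groups. The 52 values include ratios and are not the 52 genes tested for spread. The Cd8b1 to Cd8a ratio of TPM was 246 in replicate 4, against 64.2 in the next library; this pair was chosen for its levels, so the value is a description. Replicate 4 was also the highest for Chd4 (491 TPM, next 422 TPM), Tox4 (81.6 TPM, next 75.9 TPM) and Zbtb7a (51.6 TPM, next 44.6 TPM). Among the 52, a further 4 marker genes had counts in a single library and 0 in the other 3. This meets the criterion by construction, so the chance rate does not apply to them. Marker genes outside the 52, such as Klrb1c, Klrc1 and Xcr1, also had counts in a single library. Replicate 4 stood apart in other genes outside the 52 too. It was lowest for Nkg7 (21.8 TPM, next 30.7 TPM), and highest for Ets1 (240 TPM, next 219 TPM) and Smarca4 (273.5 TPM, next 231 TPM). Tyrobp reached 0.507 TPM in replicate 2, Batf3 0.0777 TPM and Lyz2 0.33 TPM in replicate 1, and Csf1r 0.0762 TPM in replicate 4.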

How the results depend on the processing

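The log2 difference of Cd8b1 over Cd8a (5.07) kept its direction under every alternative run; it became 3.87 in CPM, without length, and 6.19 with a pseudocount of 0.1 TPM, and ran from 4.92 to 5.13 with each replicate left out. That of Zbtb7b over Runx3 (0.638) moved by less than 1 SD under all alternatives, and from 0.584 to 0.709 with each replicate left out. The count of genes past the spread threshold (28) became 142 when a count of 1 in any library sufficed, 68 as DESeq2 dispersion outliers and 15 without the robust option; it ran from 14 to 27 with each replicate left out, and was 14 without replicate 3. None of the 10 genes passed under any of these. The causes of these shifts were not tested. A filter at a mean of 1 TPM left Cd8a and Runx2 untested. Where 200 bases were taken off each length, genes under 400 bases were left out, a limit set after seeing the data. No paired analysis was possible because there is only 1 group. Depth limits Cd8a and Runx2, with 11 to 64 read pairs per library.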
